A study of Mus musculus with 9 samples.

Results

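The genes described here mark B lymphocytes and the antibody-secreting plasma cells that B cells become. They are 9 genes chosen by symbol from the 55401 in each gene count table: 4 B-cell surface genes (Cd79a, Cd79b, Ms4a1 and Cd22), the B-cell transcription factor Pax5, and 4 plasma cell genes (Sdc1, Mzb1, Prdm1 and Tnfrsf17). The RNA was that of a calf muscle, the gastrocnemius, in FVB mice of wild-type genotype, 2 to 3 months old. Each muscle had received 1 of 3 injections 7 weeks earlier, and each group held 3 libraries. AAV-GFP-MBNL1Δ is an adeno-associated virus vector that carries green fluorescent protein and a form of MBNL1, a splicing regulator that binds the expanded CUG repeats of myotonic dystrophy. AAV-GFP is the vector with green fluorescent protein, and saline is the injection without a vector. The series title calls the protein a decoy for such repeats; wild-type mice carry no such expansion, so the comparisons concern the vectors in normal muscle. The labels give no promoter for the vectors and no sex, and they do not say that the libraries came from separate animals, so a p-value measures the spread between libraries.

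A B cell senses antigen through a membrane antibody held by the Cd79a and Cd79b chains, whose tails carry the signal into the cell. Pax5 keeps the B-cell programme on and holds plasma cell genes off. When a B cell becomes a plasma cell, Prdm1 (Blimp-1) shuts Pax5 and the surface genes down, while syndecan-1 (Sdc1), the survival receptor BCMA (Tnfrsf17) and antibody secretion genes come up. Resident B-lineage cells are scarce in healthy muscle, and Sdc1 and Prdm1 are also used by cells outside the lineage.

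RefSeq promoters in GRCm38.p6 were found for 6 of the 9 genes (Cd79a, Cd22, Pax5, Sdc1, Prdm1 and Tnfrsf17) and searched on both strands, over the 250 bases before the start, for 4 motifs. These were CCCNNGGG, the core bound by the B-cell factor EBF1, ATTTGCAT, the octamer of antibody promoters, GAAANNGAA, a core shared by IRF factors and Prdm1, and TGACGTGG, a core of the plasma cell factor Xbp1; none of the matches below overlapped another motif. Of 32841 mouse promoters of this length, 11.8%, 1.60%, 7.13% and 0.563% held them, in that order. Matches are in capitals in the stretches below, which stop where GENCODE M21 annotates an exon of the gene. A surface gene with no match and another with an EBF match are shown with the plasma cell genes that held matches, to set the sequences beside the levels that follow. Cd79a (chr7:24897247-24897380, + strand) held none, Cd22 (chr7:30879029-30879176, - strand) held 1 EBF core starting 48 bases before the start, Sdc1 (chr12:8771146-8771322, + strand) held 3, starting 145, 110 and 96 bases before it, and Tnfrsf17 (chr16:11313559-11313808, + strand) held 1 IRF and Prdm1 core, 100 bases before it.
Cd79a: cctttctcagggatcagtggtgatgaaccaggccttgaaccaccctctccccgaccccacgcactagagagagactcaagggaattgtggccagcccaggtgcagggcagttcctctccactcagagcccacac
Cd22: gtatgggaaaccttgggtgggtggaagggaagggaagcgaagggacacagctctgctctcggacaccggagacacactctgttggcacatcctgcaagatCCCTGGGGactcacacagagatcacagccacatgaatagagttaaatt
Sdc1: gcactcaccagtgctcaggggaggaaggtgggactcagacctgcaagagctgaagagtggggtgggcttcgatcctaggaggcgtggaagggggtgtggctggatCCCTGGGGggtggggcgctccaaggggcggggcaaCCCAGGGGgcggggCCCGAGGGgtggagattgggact
Tnfrsf17: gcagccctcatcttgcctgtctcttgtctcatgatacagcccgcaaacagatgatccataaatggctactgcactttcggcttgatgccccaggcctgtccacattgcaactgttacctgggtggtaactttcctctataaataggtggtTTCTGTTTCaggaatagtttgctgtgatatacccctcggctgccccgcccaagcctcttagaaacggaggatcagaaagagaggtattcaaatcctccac
The Pax5 and Prdm1 windows held none of the 4. All distances count from the RefSeq starts. The Cd22 and Prdm1 windows lie inside the GENCODE M21 spans of their genes, downstream of the outermost annotated starts. The RefSeq starts of Cd79a and Sdc1 also lie inside the spans of their genes. These are exact matches of letters, and binding was not measured. The Cd79a stretch holds ctcaaggg, which differs from the EBF core only in its second letter. A window without a match is therefore not read as lacking a site.

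The B-cell surface genes and Pax5 lay between 0.255 and 1.76 CPM (counts scaled to library size) in AAV-GFP-MBNL1Δ, 0.155 and 12.4 CPM in AAV-GFP, and 0 and 0.247 CPM in saline, and were highest in AAV-GFP 1 and 2. Sdc1, Prdm1 and Tnfrsf17 lay above every saline library in AAV-GFP 1 and 2. In AAV-GFP-MBNL1Δ they overlapped saline or, for Prdm1, lay below it. By edgeR's quasi-likelihood test with adjustment over all genes, 0 of the 8 testable members differed in AAV-GFP-MBNL1Δ against saline, where 9.37% of all genes did. None differed in AAV-GFP against saline, where 0% of all genes did, and 1, Prdm1, fell in AAV-GFP-MBNL1Δ against AAV-GFP, where 21.1% of all genes were called.

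The 9 libraries held 44603618 to 76970849 counts in genes. AAV-GFP libraries stood apart from each other: the 4 surface genes summed to 14.3, 39.4 and 1.02 CPM in AAV-GFP 1, 2 and 3, so the AAV-GFP mean rests mostly on AAV-GFP 2. Sex-linked genes split the series along the groups. Xist, made by female cells, reached no more than 0.0902 CPM in any AAV-GFP-MBNL1Δ library, against 105 to 136 CPM in the other 6. The Y-linked Ddx3y showed the reverse, with 82.7 to 84.6 CPM in the AAV-GFP-MBNL1Δ libraries against 0.409 to 2.58 CPM in the others. Sex and the AAV-GFP-MBNL1Δ vector therefore cannot be told apart in any comparison with that group. Numbers in the names of the deposited counts also set that group apart from the other 6 libraries. What they stand for is not stated, and anything that goes with them cannot be separated from that vector. In whole muscle, a difference in the number of B-lineage cells and a difference in RNA per cell cannot be told apart either.

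Cd79a, the signalling chain Igα of the B-cell receptor (chromosome 7, 24897381 to 24902197 in mm10), had 1.37, 1.33 and 0.375 CPM in AAV-GFP-MBNL1Δ 1 to 3. It had 3.71, 10.02 and 0.177 CPM in AAV-GFP 1 to 3, and 0.0722, 0 and 0.0520 CPM in saline 1 to 3. Both vector groups lay wholly above saline, where the zero in saline 2 allows up to 0.0454 CPM at 3 counts, and the vector groups overlapped each other. The log2 fold change against saline was 4.54 (SE 1.48, edgeR adjusted p = 0.0952) in AAV-GFP-MBNL1Δ and 6.73 (SE 1.49, edgeR adjusted p = 0.0841) in AAV-GFP. Between the vectors it was −2.19 (SE 1.09, edgeR adjusted p = 0.166), AAV-GFP-MBNL1Δ being the lower.

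Cd79b, the partner chain Igβ (chromosome 11, 106311341 to 106314762), had 1.08, 1.0 and 0.509 CPM in AAV-GFP-MBNL1Δ, 4.0, 11.9 and 0.177 CPM in AAV-GFP, and 0.0866, 0.0303 and 0.247 CPM in saline. AAV-GFP-MBNL1Δ lay above saline without overlap, whereas AAV-GFP 3 lay below saline 3. Its log2 fold change against saline was 2.77 (SE 1.29, edgeR adjusted p = 0.217) in AAV-GFP-MBNL1Δ, 5.41 (SE 1.33, edgeR adjusted p = 0.0886) in AAV-GFP and −2.64 (SE 1.11, edgeR adjusted p = 0.114) between the vectors. The chains form a heterodimer, and their counts were close to even where they were high. Cd79a took 55.8% (95% Clopper-Pearson interval 47.9% to 63.6%), 57.0% (48.0% to 65.7%) and 42.4% (29.6% to 55.9%) of the counts of both in AAV-GFP-MBNL1Δ 1 to 3. The share was 48.1% (43.7% to 52.5%), 45.8% (43.5% to 48.2%) and 50% (24.7% to 75.3%) in AAV-GFP 1 to 3. In saline it was 45.5% (16.7% to 76.6%), 0% (0% to 84.2%) and 17.4% (4.95% to 38.8%) of 11, 2 and 23 counts. These intervals cover counting error only. The exonic lengths are alike, 1457 and 1431 bases, so the count shares approximate shares per length.

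Ms4a1, the surface protein CD20 targeted by B-cell depleting antibodies (chromosome 19, 11249675 to 11266241), had 1.22, 1.76 and 0.255 CPM in AAV-GFP-MBNL1Δ. It had 3.01, 5.19 and 0.155 CPM in AAV-GFP, against 0.0433, 0.0151 and 0.0130 CPM in saline, which is 5 counts over the 3 saline libraries. Every vector library exceeded every saline library. The log2 fold change against saline was 5.40 (SE 1.47, edgeR adjusted p = 0.0572) in AAV-GFP-MBNL1Δ, the smallest adjusted p of the 9 genes in that comparison, and 6.78 (SE 1.46, edgeR adjusted p = 0.0841) in AAV-GFP. Between the vectors it was −1.39 (SE 0.98, edgeR adjusted p = 0.319).

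Cd22, a sialic acid receptor that damps B-cell receptor signals (chromosome 7, 30865402 to 30880342), had 1.34, 1.58 and 0.405 CPM in AAV-GFP-MBNL1Δ, 3.62, 12.4 and 0.509 CPM in AAV-GFP, and 0.0722, 0 and 0.0650 CPM in saline. The pattern was that of Ms4a1, with both vector groups above saline and overlapping each other. Its log2 fold change against saline was 4.51 (SE 1.35, edgeR adjusted p = 0.0751) in AAV-GFP-MBNL1Δ, 6.83 (SE 1.37, edgeR adjusted p = 0.0841) in AAV-GFP and −2.32 (SE 1.0, edgeR adjusted p = 0.121) between the vectors. An antisense gene, Gm29439, covers 9.5% of its exonic bases, and the strand setting of the counting is not given in the sources used here.

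Pax5, the factor that commits cells to the B lineage (chromosome 4, 44524757 to 44710487), had 0.812, 1.22 and 0.405 CPM in AAV-GFP-MBNL1Δ, 2.30, 3.35 and 0.288 CPM in AAV-GFP, and 0.101, 0.0606 and 0.156 CPM in saline. Both vector groups again lay above saline. The log2 fold change against saline was 2.89 (SE 0.88, edgeR adjusted p = 0.0785) in AAV-GFP-MBNL1Δ, 4.20 (SE 0.89, edgeR adjusted p = 0.0841) in AAV-GFP and −1.31 (SE 0.74, edgeR adjusted p = 0.218) between the vectors. Antisense genes cover 8.60% of its exonic bases.

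**Figure D1:**
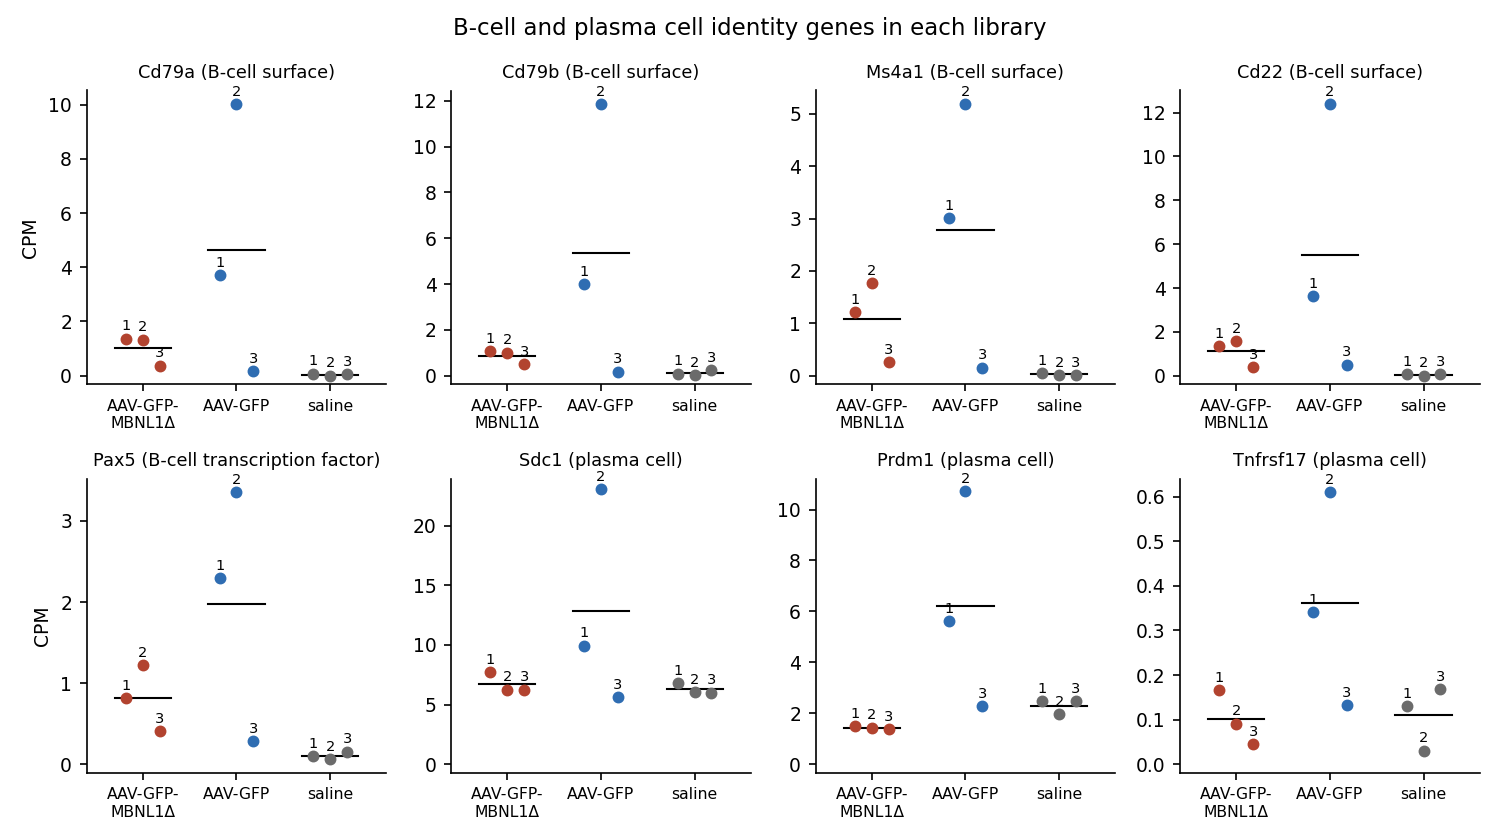
Level in CPM (vertical axes, 1 scale per gene) of the 8 genes with counts in each library; points are libraries with their replicate number, lines are group means of 3. The B-cell genes in the upper row and Pax5 are near 0 in saline and highest in AAV-GFP 2, while Sdc1, Prdm1 and Tnfrsf17 keep a level in saline that AAV-GFP-MBNL1Δ does not exceed by more than a small margin.

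Sdc1, a heparan sulphate carrier used to sort plasma cells that is also made by epithelia and other cells (chromosome 12, 8771323 to 8793715), had 7.73, 6.24 and 6.25 CPM in AAV-GFP-MBNL1Δ. It had 9.95, 23.0 and 5.65 CPM in AAV-GFP, against 6.78, 6.06 and 5.99 CPM in saline. The AAV-GFP-MBNL1Δ and saline values overlapped, and AAV-GFP 3 was the lowest of the 9 libraries while AAV-GFP 2 was the highest. The log2 fold change against saline was 0.10 (SE 0.43, edgeR adjusted p = 0.911) in AAV-GFP-MBNL1Δ, 1.04 (SE 0.43, edgeR adjusted p = 0.211) in AAV-GFP and −0.94 (SE 0.43, edgeR adjusted p = 0.137) between the vectors.

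Prdm1, the repressor that drives plasma cell differentiation and also acts in T cells and macrophages (chromosome 10, 44437177 to 44528501), had 1.5, 1.44 and 1.36 CPM in AAV-GFP-MBNL1Δ. It had 5.62, 10.7 and 2.28 CPM in AAV-GFP, against 2.47, 1.95 and 2.47 CPM in saline. All 3 AAV-GFP-MBNL1Δ libraries lay below the 6 others. Prdm1 fell by 2.12 on the log2 scale in AAV-GFP-MBNL1Δ against AAV-GFP (SE 0.47, edgeR adjusted p = 0.0202), the only called difference among the 9 genes in the 3 comparisons. That call ended without AAV-GFP-MBNL1Δ 1, 2 or 3 (edgeR adjusted p = 0.0636, 0.0670 and 0.0866). It also ended with the vector groups fitted alone (edgeR adjusted p = 0.0691), where 6.46% of genes were called, and without AAV-GFP 2 the log2 change was −1.46 (edgeR adjusted p = 0.0127). Against saline the log2 fold change was −0.68 for AAV-GFP-MBNL1Δ (SE 0.46, edgeR adjusted p = 0.398). With those 2 groups fitted alone it was −0.70, with an edgeR adjusted p of 0.00894, in a fit that called 12.8% of genes lower. For AAV-GFP against saline it was 1.44 (SE 0.45, edgeR adjusted p = 0.143).

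Tnfrsf17, the receptor BCMA through which long-lived plasma cells receive survival signals (chromosome 16, 11313812 to 11320074), had 11, 5 and 3 counts in AAV-GFP-MBNL1Δ, 23, 49 and 6 in AAV-GFP and 9, 2 and 13 in saline. This was 0.165, 0.0909 and 0.0449 CPM in AAV-GFP-MBNL1Δ, 0.341, 0.611 and 0.133 CPM in AAV-GFP, and 0.130, 0.0303 and 0.169 CPM in saline. All groups overlapped. The log2 fold change against saline was −0.14 (SE 0.76, edgeR adjusted p = 0.931) in AAV-GFP-MBNL1Δ, 1.73 (SE 0.67, edgeR adjusted p = 0.191) in AAV-GFP and −1.87 (SE 0.69, edgeR adjusted p = 0.0771) between the vectors. At so few counts a difference of this size between AAV-GFP-MBNL1Δ and saline was not detectable.

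Mzb1, a chaperone of antibody assembly in the endoplasmic reticulum, was listed at 0 counts in all 9 libraries. In GENCODE M21, 1214 of its 1215 exonic bases lie inside the span of a gene on the same strand, SPATA24, and 695 of them are exons of it. Of 443 protein-coding genes that lie inside a same-strand gene, 441 (99.5%) were at 0 counts in every library. The share was 22.3% of 754 genes inside an opposite-strand gene only, and 16.2% of 20700 genes inside no other. The 0 is therefore not read as a level of Mzb1, and the plasma cell values here rest on Sdc1, Prdm1 and Tnfrsf17. SPATA24 itself had 84, 63 and 107 counts in AAV-GFP-MBNL1Δ, 95, 70 and 49 in AAV-GFP and 78, 102 and 125 in saline.

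In AAV-GFP-MBNL1Δ against saline, no member passed the edgeR threshold (adjusted p under 0.05) among the 8 that could be tested, where 9.37% of the 18514 genes tested did. At an unadjusted p under 0.05 there were 4, all higher (Cd79a, Ms4a1, Cd22 and Pax5), beside 13.1% of all genes. DESeq2 called 4 of the 8, all higher, against 8.64% of all genes, and limma-voom called none, against 8.46%. Without AAV-GFP 3, which is in neither group but enters the shared estimate of spread, edgeR called 5 higher, the 4 surface genes and Pax5, against 6.01% of all genes. Without AAV-GFP 2 it called 1 higher, a surface gene, against 10.3% of all genes. With any other library left out it called no member, and 500 to 1141 genes in all. The groups did not overlap for 6 of 8, 5 higher and 1 (Prdm1) lower, where 22.7% of all genes were wholly higher and 20% wholly lower. The median log2 fold change was 4.52 over the 4 surface genes and −0.14 over the 3 tested plasma cell genes, beside 0.02 over all genes.

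AAV-GFP against saline had no called gene at all: 0 of 8 members and 0% of 18514 genes by edgeR, and 0 by limma-voom. At an unadjusted p under 0.05, edgeR had all 8 members higher, beside 15.6% of all genes higher and 6.35% lower. DESeq2 called 6 of 8 higher, against 8.8% of all genes. Without AAV-GFP 3, the low library, edgeR called all 8 higher, against 15.3% of all genes, and without AAV-GFP 2 it called none of them and 5 genes in all (0.0268%). The groups did not overlap for 4 of the 8 (Cd79a, Ms4a1, Cd22 and Pax5), all higher, where 14.7% of all genes were wholly higher. The median log2 fold change was 6.76 over the surface genes and 1.44 over the plasma cell genes, beside −0.01 over all genes.

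Between the vectors, 1 of 8 members was called, Prdm1, which fell, where 21.1% of all genes were called and 10.3% fell. All 8 log2 fold changes were below 0, with medians of −2.26 over the surface genes and −1.87 over the plasma cell genes beside −0.06 over all genes. Without AAV-GFP 3 edgeR called all 8 lower in AAV-GFP-MBNL1Δ, against 22.4% of all genes. With any other library left out it called at most 1 member, and 826 to 3796 genes in all. Prdm1 alone had groups that did not overlap, where 19.2% of all genes were wholly lower. The comparisons share groups, so their values are not independent of each other.

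**Figure D2:**
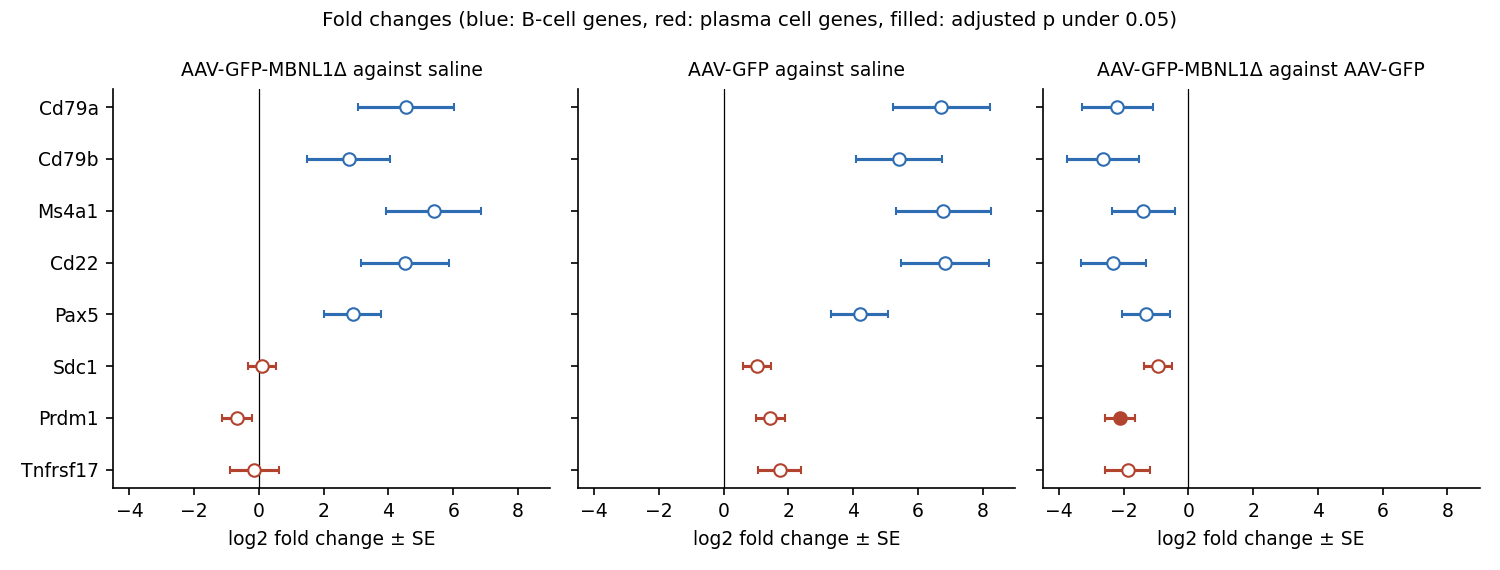
Log2 fold change with an approximate standard error derived from the test statistic (horizontal axis) of the 8 tested genes in the 3 comparisons. Blue marks B-cell genes, red plasma cell genes, and a filled point an adjusted p under 0.05. Prdm1 between the vectors, at −2.12, is the only filled point, and against saline the AAV-GFP-MBNL1Δ values of the plasma cell genes lie between −0.68 and 0.10 while those of the B-cell genes lie between 2.77 and 5.40.

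The surface and plasma cell genes were set against each other in each library as the difference of mean log2(CPM + 0.1), plasma cell minus surface. The size of this difference depends on gene lengths, so only its shifts between libraries are read. The size of the shift from saline also depends on the 0.1 CPM added, since saline surface genes lie near that value. It was 0.15, −0.28 and 1.21 in AAV-GFP-MBNL1Δ 1 to 3, −0.32, −0.75 and 2.15 in AAV-GFP 1 to 3, and 3.25, 3.42 and 3.19 in saline 1 to 3. All 6 vector libraries lay below the saline libraries, and the vector groups overlapped. The means were 0.36 ± 0.77 in AAV-GFP-MBNL1Δ, 0.36 ± 1.57 in AAV-GFP and 3.28 ± 0.12 in saline (SD, n = 3 each). The small saline SD depends on the pseudocount. Without one, the plasma cell sum divided by the surface sum was 34.2, 177 and 22.9 in saline 1 to 3. That ratio was 1.88, 1.37 and 4.96 in AAV-GFP-MBNL1Δ 1 to 3 and 1.11, 0.871 and 7.91 in AAV-GFP 1 to 3. Most of the shift came from the surface genes, whose summed level was 5.01, 5.67 and 1.54 CPM in AAV-GFP-MBNL1Δ, 14.3, 39.4 and 1.02 CPM in AAV-GFP, and 0.274, 0.0454 and 0.377 CPM in saline. The plasma cell sum moved less, with 9.40, 7.77 and 7.66 CPM in AAV-GFP-MBNL1Δ, 15.9, 34.4 and 8.06 CPM in AAV-GFP, and 9.38, 8.04 and 8.63 CPM in saline. Sdc1 supplies most of that sum, and with Tnfrsf17 as the only plasma cell gene the difference averaged −2.34 in AAV-GFP-MBNL1Δ, −2.43 in AAV-GFP and 0.43 in saline.

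**Figure D3:**
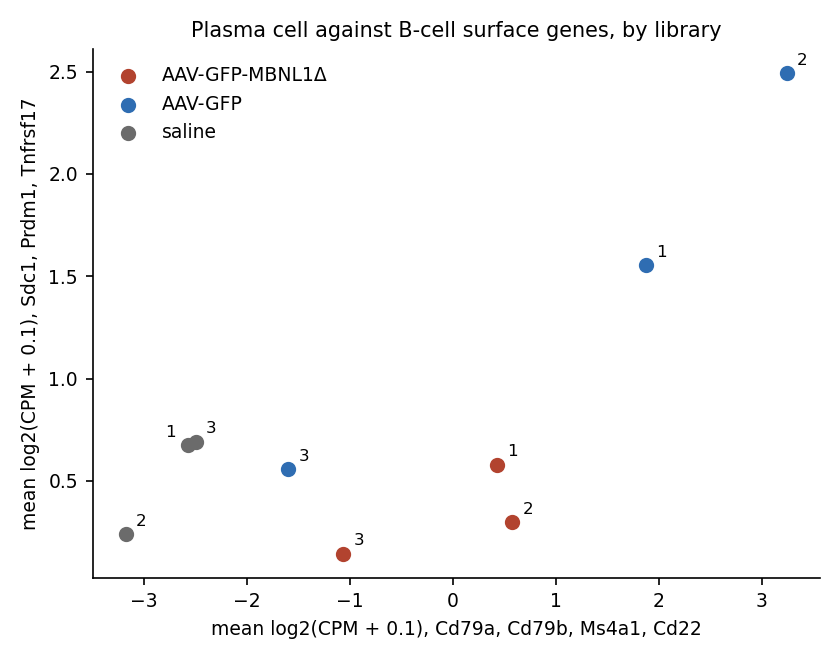
Mean log2(CPM + 0.1) of Sdc1, Prdm1 and Tnfrsf17 (vertical axis) against that of Cd79a, Cd79b, Ms4a1 and Cd22 (horizontal axis), 1 point per library with its replicate number. AAV-GFP-MBNL1Δ libraries lie to the right of saline but not above it, and AAV-GFP 1 and 2 lie to the right and above.

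The make-up of the surface gene counts differed between libraries. Cd22 took 26.7%, 27.9% and 26.2% of the surface gene counts in AAV-GFP-MBNL1Δ, and 25.2%, 31.4% and 50% in AAV-GFP, where AAV-GFP 3 had 46 such counts. Ms4a1 took 24.3%, 31.1% and 16.5% in AAV-GFP-MBNL1Δ and 21.0%, 13.1% and 15.2% in AAV-GFP. Saline had 19, 3 and 29 such counts, too few for shares to be compared. Per length, levels in AAV-GFP were 3.18 CPM per kilobase of exon for Cd79a, 3.73 for Cd79b, 1.09 for Cd22, 0.450 for Ms4a1 and 0.224 for Pax5, beside 3.38 for Sdc1, 1.11 for Prdm1 and 0.444 for Tnfrsf17 (group means). In AAV-GFP-MBNL1Δ the order was Sdc1 at 1.77 CPM per kilobase, Cd79a at 0.703, Cd79b at 0.604, Prdm1 at 0.257, Cd22 at 0.220, Ms4a1 at 0.174, Tnfrsf17 at 0.123 and Pax5 at 0.0917. In saline Sdc1 at 1.65 and Prdm1 at 0.412 CPM per kilobase led, followed by Tnfrsf17 at 0.135 and by the B-cell genes at 0.0848 for Cd79b, 0.0284 for Cd79a, 0.0120 for Pax5, 0.00907 for Cd22 and 0.00385 for Ms4a1. In AAV-GFP every pair of neighbours in this order overlapped between libraries, and the SDs approached the means (4.63 ± 4.99 CPM for Cd79a and 5.51 ± 6.16 CPM for Cd22, SD, n = 3). In AAV-GFP-MBNL1Δ, Sdc1 stood above Cd79a and Cd79b above Prdm1 without overlap, and in saline Sdc1 stood above Prdm1 and Prdm1 above Tnfrsf17; the other neighbours in those orders overlapped.

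Across the 9 libraries, genes among the 5 most like the surface mean in log2(CPM + 0.1), among 12201 protein-coding genes with a mean of at least 1 CPM, were Ly6c2 (Pearson r = 0.997), Dnase1l3 (0.994), Ikzf3 (0.990) and Klrd1 (0.990). Ly6c2 marks monocytes and some T and plasma cells, Dnase1l3 is a secreted nuclease of macrophages and dendritic cells, and Klrd1 is a receptor chain of natural killer cells, so the likeness reached beyond the B lineage. Among the members, Pax5 followed the surface mean at 0.993, Sdc1 at 0.811, Tnfrsf17 at 0.775 and Prdm1 at 0.624. The genes most like the plasma cell mean were Lrrk1, Swap70, Cysltr1, Pml and Tnfrsf14 (0.986 to 0.989), of which Swap70 is a B-cell guanine exchange factor and Pml an interferon-induced nuclear body protein. Lrrk1 had 8.87, 7.27 and 7.46 CPM in AAV-GFP-MBNL1Δ, 13.2, 21.7 and 9.25 CPM in AAV-GFP, and 9.18, 8.27 and 8.84 CPM in saline. These correlations are descriptions over 9 libraries that share 3 groups and the high library AAV-GFP 2.

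The pathway around the members was read from lists of other genes. Their counts stand against 4.76% of all tested genes that rose and 4.6% that fell in AAV-GFP-MBNL1Δ against saline, 0% called in AAV-GFP against saline, and 10.8% that rose and 10.3% that fell between the vectors. Of 20 other B-cell identity genes tested, 1 rose in AAV-GFP-MBNL1Δ against saline, none passed in AAV-GFP against saline, and 3 fell between the vectors; the median log2 fold changes were 1.85, 4.08 and −1.70. Cxcr5, the receptor that brings B cells to follicles, had 0.541, 0.746 and 0.165 CPM in AAV-GFP-MBNL1Δ against 0.0289, 0 and 0.0260 CPM in saline. It rose by a log2 fold change of 4.54 (SE 1.11, edgeR adjusted p = 0.0395). Against AAV-GFP, the fallen genes were Cd180 and Cd72, which tune B-cell activation, and the inhibitory receptor Btla, at log2 fold changes of −3.39, −3.35 and −1.67 (edgeR adjusted p = 0.0317, 0.0431 and 0.0469). Cd180 had 1.55, 1.71 and 0.764 CPM in AAV-GFP-MBNL1Δ, 6.69, 32.8 and 2.48 CPM in AAV-GFP, and 0.909, 0.893 and 1.05 CPM in saline. Without AAV-GFP 2 these changes were smaller, −1.77 for Cd180, −2.35 for Cd72 and −1.04 for Btla.

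Most of the other plasma cell genes lay above saline in AAV-GFP-MBNL1Δ, but they did not all move alike. In that comparison 15 of 20 were wholly above saline and 2 wholly below, where 22.7% and 20% of all genes were. In AAV-GFP against saline 10 of 20 were wholly above, where 14.7% of all genes were. Of 20 tested, 2 rose in AAV-GFP-MBNL1Δ against saline, none passed in AAV-GFP against saline, and between the vectors 1 rose and 2 fell, with medians of 0.63, 1.86 and −1.41. Jchain, which joins antibody units into polymers, had 90.6, 43.3 and 29.5 CPM in AAV-GFP-MBNL1Δ, 225, 870 and 2.08 CPM in AAV-GFP, and 0.419, 0.212 and 0.585 CPM in saline. Its log2 fold change was 7.05 for AAV-GFP-MBNL1Δ against saline (SE 1.82, edgeR adjusted p = 0.0487), a call that ended under 5 of the alternative settings. Like the surface genes, it was highest in AAV-GFP 2 and lowest in saline. Ell2, an elongation factor used in antibody secretion and present in muscle, rose by 0.50 against saline (edgeR adjusted p = 0.0372) and by 0.41 against AAV-GFP (edgeR adjusted p = 0.0439).

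Xbp1, the secretory factor downstream of Prdm1, had 58.7, 57.0 and 58.3 CPM in AAV-GFP-MBNL1Δ, 115, 210 and 97.1 CPM in AAV-GFP, and 82.5, 104 and 89.9 CPM in saline. Like Prdm1, it was lowest in all 3 AAV-GFP-MBNL1Δ libraries, and it fell by 1.28 on the log2 scale against AAV-GFP (SE 0.26, edgeR adjusted p = 0.0150), while against saline the change was −0.67 (edgeR adjusted p = 0.142). The saline libraries held this much Xbp1 while their Jchain and surface gene levels were low. The part of cells outside the B lineage in the Xbp1 level was not tested. Slamf7, a surface receptor of plasma and natural killer cells, fell by 3.28 between the vectors (edgeR adjusted p = 0.0379), and by 1.86 without AAV-GFP 2. Pou2af1, the B-cell octamer coactivator, had 2.68, 1.16 and 0.659 CPM in AAV-GFP-MBNL1Δ, 15, 49.96 and 0.199 CPM in AAV-GFP, and 0.0289, 0.0454 and 0.0650 CPM in saline, with a log2 fold change of 8.80 for AAV-GFP against saline (edgeR adjusted p = 0.0841).

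The constant chain Ighm of IgM went against this order. The other antibody chain genes are not reported here. It had 707, 904 and 864 CPM in AAV-GFP-MBNL1Δ, 157, 155 and 190 CPM in AAV-GFP, and 158, 88.3 and 158 CPM in saline. Ighm rose in AAV-GFP-MBNL1Δ by 2.61 against saline (SE 0.24, edgeR adjusted p = 0.000646) and by 2.30 against AAV-GFP (SE 0.23, edgeR adjusted p = 0.00103), and both calls were kept without any 1 library and under every alternative run. Cd79a and Cd79b, which pair with it on the B-cell surface, were highest in AAV-GFP 1 and 2, where Ighm was near its saline level.

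**Figure D4:**
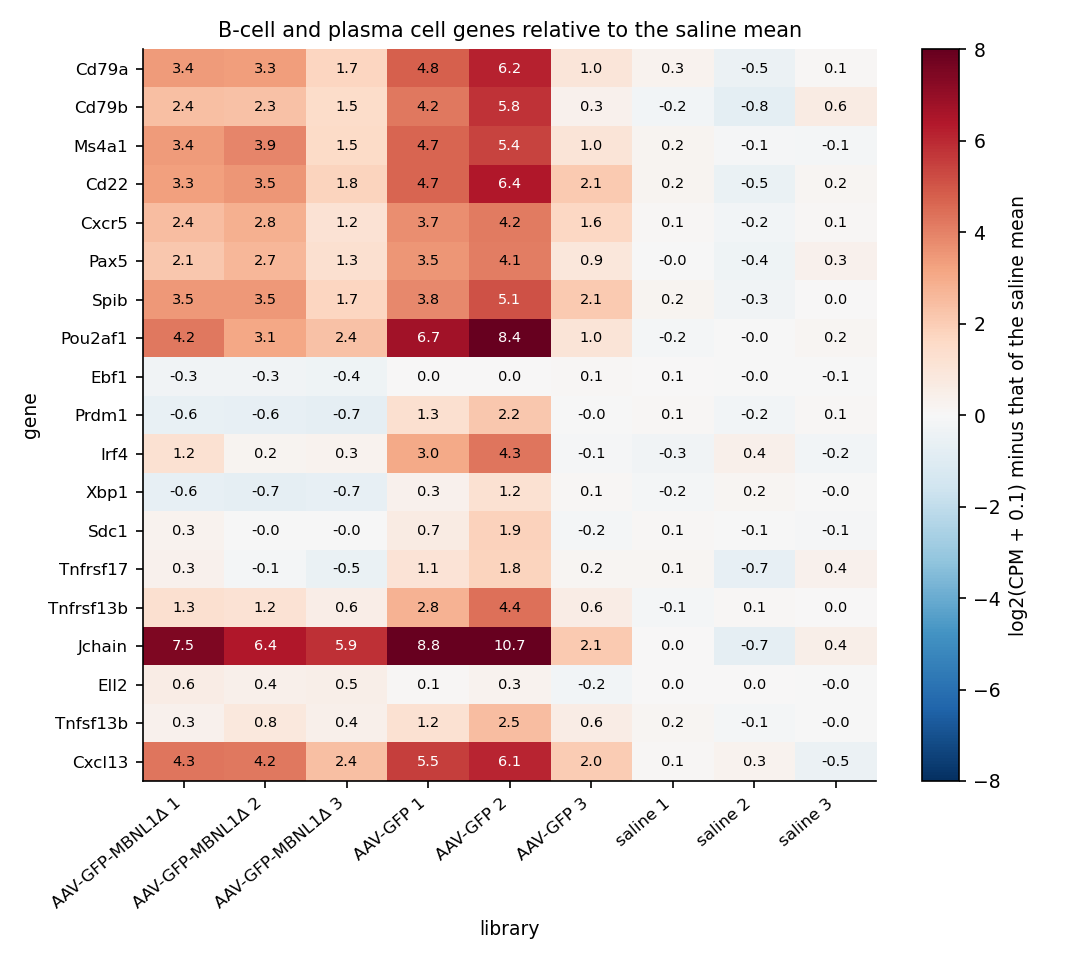
Log2(CPM + 0.1) minus that of the saline mean (colour, with the value printed) for the members with counts and 11 companion genes (rows) in each library (columns). The surface genes, Pax5, Jchain and Cxcl13 are above the saline mean in all vector libraries, least in AAV-GFP 3 except for Cd22, which is least in AAV-GFP-MBNL1Δ 3, whereas Prdm1, Xbp1 and Ebf1 are below the saline mean in the AAV-GFP-MBNL1Δ libraries.

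The transcription factors of the lineage split. Of 13 tested, Spib and Ikzf3 rose and Ebf1 fell in AAV-GFP-MBNL1Δ against saline, none passed in AAV-GFP against saline, and Spi1, Pou2f2, Ets1 and Ebf1 fell between the vectors; the medians were 0.88, 3.22 and −1.13. Spib, a partner of Spi1 in B cells and plasmacytoid dendritic cells, rose by 5.22 (SE 1.19, edgeR adjusted p = 0.0321), and Ikzf3, the lymphoid factor Aiolos, by 4.31 (SE 1.11, edgeR adjusted p = 0.0476). Ebf1, the B-cell factor that is also made by muscle stroma and fat, had 54.9, 54.9 and 52.2 CPM in AAV-GFP-MBNL1Δ, 67.1, 68.4 and 71.4 CPM in AAV-GFP, and 69.7, 66.8 and 64.2 CPM in saline. It fell by 0.31 against saline (SE 0.07, edgeR adjusted p = 0.0279) and by 0.35 against AAV-GFP (SE 0.07, edgeR adjusted p = 0.0128), so it did not follow Pax5. Irf8 was listed at 0 in all libraries and, like Mzb1, lies inside a same-strand gene.

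Of 18 genes of B-cell receptor signalling, none was called in either vector group against saline, and 2 fell between the vectors, with medians of 0.70, 2.18 and −1.47. Syk, the kinase recruited to the Cd79a and Cd79b tails, had 13.9, 10.02 and 8.12 CPM in AAV-GFP-MBNL1Δ, 19.8, 57.4 and 6.91 CPM in AAV-GFP, and 3.64, 3.60 and 4.66 CPM in saline. The adaptors Pik3ap1 and Dapp1 fell by 2.44 and 1.49 between the vectors (edgeR adjusted p = 0.0421 and 0.0197), with Pik3ap1 at −1.35 without AAV-GFP 2.

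Genes of B-cell survival and homing included ligands and receptors that rose. Of 14 tested, 3 rose in AAV-GFP-MBNL1Δ against saline, none passed in AAV-GFP against saline and 1 fell between the vectors, with medians of 1.65, 3.70 and −1.35. Cxcl13, the chemokine that Cxcr5 senses, had 11.4, 11.1 and 3.09 CPM in AAV-GFP-MBNL1Δ, 27.6, 40.4 and 2.35 CPM in AAV-GFP, and 0.549, 0.621 and 0.325 CPM in saline, and rose by 4.10 in AAV-GFP-MBNL1Δ (SE 1.01, edgeR adjusted p = 0.0420). Cd27, a receptor of memory B cells and T cells, rose by 4.19 (SE 0.83, edgeR adjusted p = 0.0206). Cd40, through which T cells help B cells, fell by 2.49 between the vectors (edgeR adjusted p = 0.0387), and by 1.57 without AAV-GFP 2. Tnfsf13b, the survival ligand BAFF, had 1.14, 1.67 and 1.18 CPM in AAV-GFP-MBNL1Δ, 2.24, 5.40 and 1.42 CPM in AAV-GFP, and 0.996, 0.803 and 0.858 CPM in saline, and was not called in any of the 3 comparisons.

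Germinal centre genes, tested for 7 of 10, had no call against saline and 4 that fell between the vectors, Gcsam, Mki67, S1pr2 and Basp1, the last 3 also being used outside B cells. Of the lymph node genes, 5 of 12 could be tested. Glycam1 reached at most 0.0150 CPM and Madcam1 at most 0.0144 CPM in any library, both made by lymph node vessels. Ccl21a and Ccl19 were listed at 0 in all libraries, and whether those zeros are levels was not tested. Enpp2, a lipid enzyme of those vessels that muscle also makes, had 33.3, 31.1 and 31.7 CPM in AAV-GFP-MBNL1Δ, 20.6, 18.5 and 20.7 CPM in AAV-GFP, and 24.5, 26.1 and 20.4 CPM in saline, and rose by 0.44 against saline and by 0.68 against AAV-GFP (edgeR adjusted p = 0.0293 and 0.00461).

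All 14 of these calls in AAV-GFP-MBNL1Δ against saline, counting those of the marker lists that follow, ended when AAV-GFP-MBNL1Δ 1 or 2 or any 1 saline library was left out, and 13 ended without AAV-GFP-MBNL1Δ 3. Without AAV-GFP 1, which is in neither group but enters the shared estimate of spread, 12 of the 14 ended. With no filter on low counts 11 of the 14 ended, with limma-voom 10, and with limma-voom and library weights 3. Cxcr5, Jchain, Spib, Ikzf3, Cxcl13 and Cd27 were among those that ended under both no filter and limma-voom, and Jchain also ended with library weights, upper quartile scaling and the replicate block. Of 26 such calls between the vectors, 24 ended without AAV-GFP-MBNL1Δ 3, 17 without AAV-GFP 1, 10 without AAV-GFP 2 and 16 or 17 without 1 saline library. With only the 2 vector groups fitted 23 of the 26 ended, with no filter 15, with limma-voom 15 and with the replicate block 11. The 2 calls between the vectors that were kept whichever library was left out were Enpp2 and Trp63. Ighm is not in these counts.

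Summed T-cell and macrophage markers were above saline in every vector library, as the surface gene sum was. The 14 T-cell markers summed to 8.51 to 22 CPM in AAV-GFP-MBNL1Δ, 8.81 to 109 CPM in AAV-GFP and 1.67 to 2.15 CPM in saline, none being at 0 in all libraries. Of these, 4 rose in AAV-GFP-MBNL1Δ against saline (Lck, Cd3e, Cd6 and Cd8b1). The 12 macrophage markers summed to 261 to 398 CPM in AAV-GFP-MBNL1Δ, 323 to 3069 CPM in AAV-GFP and 136 to 172 CPM in saline, with Fcgr1 alone called, lower between the vectors. Of 9 markers of plasmacytoid dendritic cells, which share Spib and Ly6d with these lists, Spib rose against saline and Bst2 fell between the vectors. The 9 summed to 121 to 136 CPM in AAV-GFP-MBNL1Δ, 152 to 198 CPM in AAV-GFP and 143 to 148 CPM in saline. That sum follows its most abundant genes. In AAV-GFP-MBNL1Δ, 6 of the 9 were wholly above saline and 1 wholly below, where 22.7% and 20% of all genes were. The median log2 fold change against saline was 1.64 in AAV-GFP-MBNL1Δ and 3.54 in AAV-GFP. Prdm1 is used by T cells and macrophages too. The part of these cells in the values of Prdm1, Sdc1 and the shared signalling genes was not tested.

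Epithelial markers, which bear on Sdc1, summed to 25.7 to 29.9 CPM in AAV-GFP-MBNL1Δ, 18.9 to 21.8 CPM in AAV-GFP and 20.2 to 22.3 CPM in saline. Trp63, at 23.3 to 26.2 CPM in AAV-GFP-MBNL1Δ, 14.9 to 18.2 CPM in AAV-GFP and 16.7 to 19.2 CPM in saline, made up most of the sum, and Krt1, Krt5 and Krt14 of stratified epithelium reached at most 0.0148, 0.0374 and 0.0125 CPM in any library. It rose in AAV-GFP-MBNL1Δ against saline and against AAV-GFP (edgeR adjusted p = 0.0228 and 0.00668), and Epcam fell between the vectors (edgeR adjusted p = 0.0255). The 7 fibroblast markers had no call against saline, and 3 of them (Cd34, Dpt and Pdgfra) fell between the vectors. The labelled tissue was checked with 8 skeletal muscle markers, which summed to 166493 to 192499 CPM in AAV-GFP-MBNL1Δ, 90668 to 146337 CPM in AAV-GFP and 147299 to 191667 CPM in saline, and of which Acta1 rose between the vectors. The part of stroma and epithelium in the Sdc1 level was not tested.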

How the data were processed

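Messenger RNA was sequenced from 9 muscle libraries, 3 per group as the labels give them. The count tables hold whole reads per gene as deposited by the authors; per the submitters' processing notes the tools were cutadapt 2.10, STAR 2.7.5a, HTSeq 0.12.4 and DESeq2 1.30.0, with mm10. For the annotation release and strand setting, the sources used here state nothing. Gene symbols and positions were taken from GENCODE M21 (GRCm38), which matched 55141 of 55401 identifiers. Rows naming no gene, 16.8% to 18.3% of all counts, stayed out of every total and test. Genes passing edgeR's filterByExpr (18514, 8 of the 9 members) were scaled by TMM and tested with the robust quasi-likelihood test of edgeR 4.0.16 in R 4.3.3, 1 mean per group over all 9 libraries, with Benjamini-Hochberg adjustment within each comparison. The SE of an edgeR log2 fold change is its absolute value divided by the square root of the F statistic of the quasi-likelihood test. It is therefore approximate, above all for genes with few counts. The common biological coefficient of variation was 0.232, with 6 residual degrees of freedom. The scripts were tested on simulated counts.

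CPM were computed from TMM-scaled totals, and log2 levels use a pseudocount of 0.1 CPM. Alternatives were DESeq2 1.42.0, limma 3.58.1 (voom, with and without library weights), other scalings and filters, a fit that is not robust, the compared groups alone, the replicate block and leaving out each library. The text names all members, and draws its other genes from those called in the companion lists, up to 4 more per list by smallest p in each comparison with saline, and the 5 genes nearest to each member mean. Tnfsf13b, Glycam1, Madcam1, Ighm and SPATA24 are named outside that rule, chosen for their role, or after their values were seen. The members, lists and tests were chosen with earlier results of these data known. Intervals and floors cover counting error only. Some genes that the rule would name are not reported here.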

Additional observations from a re-analysis of the deposited data

How the results depend on the processing

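Counts of calls moved far more than the fold changes behind them. Of the 8 testable members, those called in AAV-GFP-MBNL1Δ against saline went to 4 with DESeq2, 1 with a fit that is not robust and 6 with only those 2 groups fitted, against 0 in the report, and ranged over 0 to 5 when 1 library was left out. In AAV-GFP against saline the members called were 6 with DESeq2 and 8 with limma-voom and library weights, against 0, and 0 to 8 with 1 library left out. Between the vectors they were 5 with library weights and 0 with those 2 groups alone, against 1, and 0 to 8 with 1 library left out. Over all genes, calls in AAV-GFP-MBNL1Δ against saline numbered 1734, with 2888 by DESeq2, 5458 with library weights, 4584 with the 2 groups alone and 500 to 4047 with 1 library left out. The number over all genes in the fit that is not robust is not given here, so its 1 member has no background beside it. In AAV-GFP against saline the calls over all genes numbered 0, with 1720 by DESeq2, 5464 with library weights and 0 to 3262 with 1 library left out, the highest without AAV-GFP 3. Between the vectors they numbered 3914, with 9294 with library weights, 1159 with the 2 groups alone and 826 to 6649 with 1 library left out. The direction of a member's fold change reversed only for Sdc1 and Tnfrsf17, both uncalled, in AAV-GFP-MBNL1Δ against saline. Sdc1 ranged from −0.0074 (without AAV-GFP-MBNL1Δ 1) to 0.16 with 1 library left out, and Tnfrsf17 from −0.73 to 0.31, with 0.13 under library weights. The mean difference of plasma cell and surface genes depended on its definition. In AAV-GFP-MBNL1Δ it was 0.36, with −2.34 without Sdc1 and Prdm1, 1.22 as a ratio of summed CPM and −0.55 with Mzb1 kept at 0. In AAV-GFP it was 0.36, with −2.43 without Sdc1 and Prdm1. In saline it was 3.28, with 2.02 at a pseudocount of 0.5 CPM, 0.43 without Sdc1 and Prdm1, 5.69 as a ratio of summed CPM and 2.32 with Mzb1 kept at 0. Keeping Mzb1 at 0 was chosen after seeing the data, and Mzb1 could not enter the mean planned with Tnfrsf17. The cause of these changes was not tested.

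Replicate numbers are shared across groups, but same-numbered libraries did not deviate together in every pair (correlations of −0.037 to −0.005 for AAV-GFP-MBNL1Δ with saline, −0.082 to 0.073 for AAV-GFP with saline and 0.073 to 0.446 for the vectors). With 3 libraries per group, these correlations cannot settle whether same-numbered libraries share more than a number. With the replicate block, 1 member (Ms4a1) was called in AAV-GFP-MBNL1Δ against saline (edgeR adjusted p = 0.00854) and 1, also Ms4a1, in AAV-GFP against saline (edgeR adjusted p = 0.0223), where the block called 99 genes in all. The share of all genes that the block called in AAV-GFP-MBNL1Δ against saline is not given here, so that call has no background beside it. Depth limits the saline levels of the surface genes, each of which rests on 0 to 19 counts per library.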
